A study of Homo sapiens with 82 samples.

Results

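Solute carriers are membrane proteins that move amino acids, sugars, ions, metals, vitamins and metabolites across the surface of a cell or into its organelles, and their genes carry the prefix SLC followed by a family number. The genes described here are the solute carriers expressed in HT29 cells, leaving out family SLC38. A gene was taken in if its symbol had the form SLC, family number, A and member number, and if its mean level over all 32 RNA-seq libraries was at least 5 CPM, where CPM is the count divided by the library total and scaled to a fixed sum. Of 320 such genes outside SLC38 in the count tables, 155 passed this limit and are called members here, out of 51838 genes in all. Of the other 165 genes, 23 had no count in any library. The members belong to 40 families, whereas the tables hold 46. The member closest to the limit was SLC27A5, at a mean of 5.03 CPM, and the closest gene outside it was SLC1A7, at 4.97 CPM. The limit used the level over all libraries and made no use of any difference between groups. In 140 members the mean of every group was at or above 5 CPM, and in 15 members at least 1 group mean was lower.

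HT29 is an established human colorectal adenocarcinoma cell line, grown here in medium whose serum had been stripped with charcoal and dextran before drugs were added. Cells received DMSO as vehicle or a drug at 10 μM, which was GW3965, T0901317 or rosiglitazone. RNA was taken after 24 h or 48 h, which gives 8 groups of 4 replicates each. GW3965 and T0901317 are synthetic agonists of the liver X receptors (LXRs), which respond to oxysterols and regulate lipid and cholesterol genes, and rosiglitazone is an agonist of PPARG, a receptor that responds to fatty acids. All libraries come from this 1 cell line. The labels do not say whether replicates were separate cultures, so p-values measure the spread between these libraries. At each time the 4 DMSO libraries serve as control for all 3 drugs.

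A library held between 21044798 and 51332656 counts. All 8 markers of intestinal epithelium that were checked had a mean of at least 1 CPM, and 2 of 12 markers of other cell types did, with a mean of at most 5.62 CPM. The levels of single epithelial markers varied between groups. KRT20, an intestinal keratin, averaged 343.9 CPM with DMSO at 48 h, 450.4 with GW3965, 332.3 with T0901317 and 1016 with rosiglitazone, and VIL1 (villin, of the brush border) averaged 151, 241.3, 245.3 and 66.8 CPM. Genes of the mitochondrial genome took 2.8% to 3.27% of the counts with GW3965 at 48 h, above all DMSO libraries of that time (1.85% to 2.74%), and 2.57% to 3.75% with T0901317. The part of these differences in the results was not tested. Members took up between 1.46% and 1.98% of the counts of a library. Their median share was 1.56% with DMSO at 24 h and 1.84% with DMSO at 48 h. The GW3965 libraries at 48 h had a median of 1.71%, the T0901317 libraries 1.56% and the rosiglitazone libraries 1.93%. The 4 rosiglitazone libraries at 48 h, from 1.89% to 1.98%, lay above all DMSO libraries of that time, from 1.805% to 1.85%. The 4 T0901317 libraries, from 1.51% to 1.63%, lay below them. As these are bulk libraries, fewer cells of a kind and less RNA per cell cannot be told apart.

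Several amino acid carriers are known targets of ATF4, the transcription factor that cells raise when amino acids run short or proteins misfold, and it acts through a short DNA element. Sterol-sensing factors of the SREBP family bind another short element, and LXR and PPARG each bind a repeat of a hexamer together with RXR. These 4 motifs were searched for on both strands in the 300 bases from 250 before to 50 after the start that RefSeq (GRCh38.p14) gives for a gene, which was available for 127 of the 155 members. The ATF4 element TGATGNAA was found in 6 of the 127 member promoters (4.72%) and in 3.67% of all 27305 promoters. The sterol element TCACNCCAC was found in 3 of 127 (2.36%) and in 1.15% of all. AGGTCA followed by itself after any 4 bases (the LXR repeat) or after any 1 base (the PPARG repeat) was found in 0 of 127, and in 0.0183% and 0.022% of all. Among 8 amino acid carriers known as ATF4 targets, whose values stand at the centre of the results below, 7 had a promoter entry and 2 of them held TGATGNAA, SLC3A2 and SLC7A1. Both sites are shown, each as 30 bases of the gene's own strand with the match in capitals. The SLC3A2 site (chr11:62881719-62881748, + strand) starts 38 bases into the gene and reads the element on the opposite strand. The SLC7A1 site (chr13:29595663-29595692, - strand) starts 8 bases into the gene.
SLC3A2: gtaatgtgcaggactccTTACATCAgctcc
SLC7A1: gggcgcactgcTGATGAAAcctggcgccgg
The 250 bases before the start are shown for SLC6A9 and SLC1A4, the carriers with the widest range of levels over the 8 groups. The SLC6A9 stretch (chr1:44031463-44031712, - strand) held no match to the 4 motifs. The SLC1A4 stretch (chr2:64988229-64988478, + strand) held the sterol element on the opposite strand, 51 bases before the start, in capitals.
SLC6A9: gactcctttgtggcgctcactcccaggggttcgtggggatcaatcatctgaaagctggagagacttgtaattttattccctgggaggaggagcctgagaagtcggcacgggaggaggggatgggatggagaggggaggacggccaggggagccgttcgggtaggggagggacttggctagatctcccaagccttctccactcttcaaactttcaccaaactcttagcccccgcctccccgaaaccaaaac
SLC1A4: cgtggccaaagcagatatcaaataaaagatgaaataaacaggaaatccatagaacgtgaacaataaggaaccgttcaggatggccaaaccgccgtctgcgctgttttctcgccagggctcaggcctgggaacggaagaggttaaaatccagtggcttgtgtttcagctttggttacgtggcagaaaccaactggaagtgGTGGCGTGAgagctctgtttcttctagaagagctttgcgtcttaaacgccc

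To ask which carriers responded to each receptor's agonist and when, each drug was compared with the DMSO group of its time point across all genes with the quasi-likelihood test of edgeR. A change counts as called where it reached 1.5-fold and its p, adjusted over all genes tested (Benjamini-Hochberg), was under 0.01. Few members were called at 24 h and many more at 48 h. At 24 h, GW3965 gave 8 higher and 2 lower members (6.45% of members), where 1.34% of all tested genes and 1.81% of genes with a mean of at least 5 CPM were called. T0901317 gave 7 higher and 0 lower (4.52%), against 0.721% and 1.05%. Of the members lower with T0901317, DESeq2 also called 0, and 13 had an unadjusted p under 0.05 in edgeR. Rosiglitazone gave 5 higher and 8 lower (8.39%), against 4.94% and 5.29%. At 48 h, GW3965 gave 33 higher and 13 lower (29.7%), against 16.1% and 18.5%. T0901317 gave 22 higher and 20 lower (27.1%), against 14.3% and 16.2%, and rosiglitazone gave 10 higher and 18 lower (18.1%), against 12.2% and 12.1%. At 48 h the share of members called was above that of genes of like level for each drug, and the share called higher with GW3965 was 21.3% against 8.99% (8.27% of all tested genes). Over all members the median log2 change at 48 h was 0.18 for GW3965, 0.105 for T0901317 and -0.07 for rosiglitazone, where that of all tested genes was 0.00, 0.01 and -0.01.

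**Figure D1:**
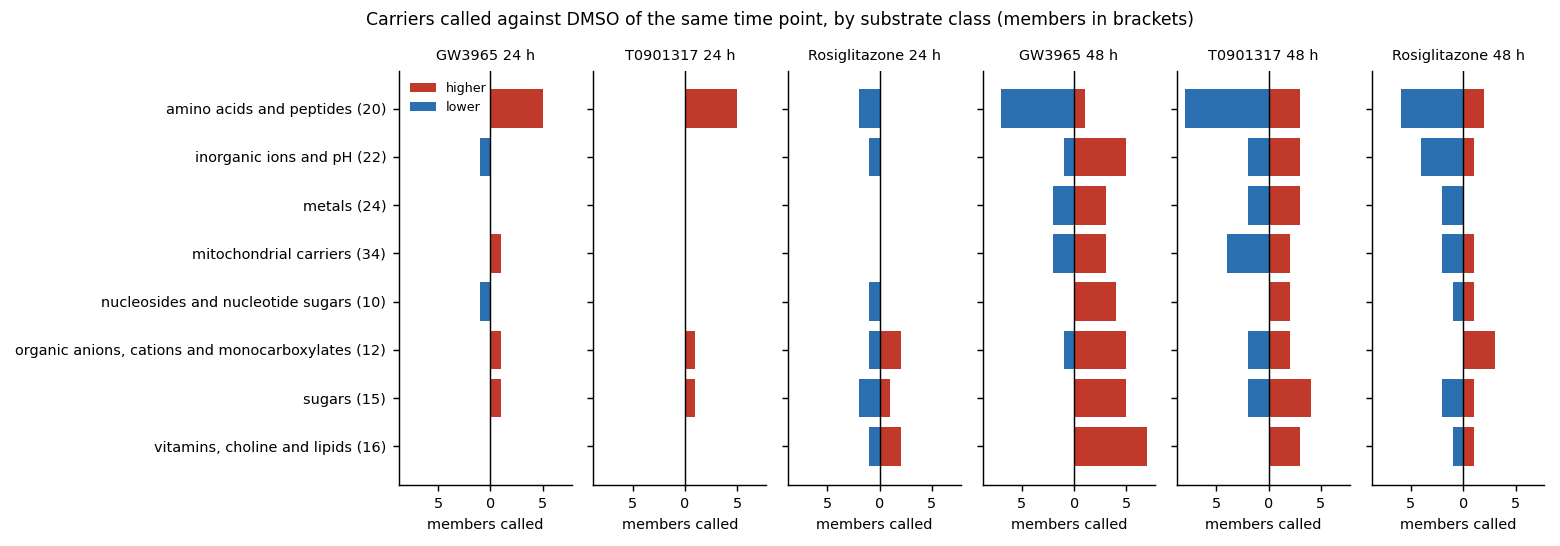
Number of members called higher (red, to the right) or lower (blue, to the left) than DMSO of the same time point, by substrate class, 1 panel for each drug and time, with the number of members of a class in brackets. Amino acid carriers were called higher with both LXR agonists at 24 h (5 each) and mostly lower at 48 h (7 and 8 of 20), whereas carriers of vitamins, choline and lipids were called higher at 48 h (7 and 3 of 16).

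The rosiglitazone counts depended on the scaling. With library totals in place of TMM factors, the median log2 change of all genes at 48 h moved by -0.18 against DMSO, by -0.14 against GW3965 and by -0.22 against T0901317. Against DMSO, 6 members were then higher and 33 lower at 48 h, whereas 4 were higher and 14 lower at 24 h, so that the share of higher members among those called went from 35.7% to 15.4% and from 38.5% to 22.2%. Changes with rosiglitazone below are relative to the TMM scaling. In all, 75 members (48.4%) were called in at least 1 of the 6 comparisons with DMSO and 80 in none. Of all genes tested at either time 27.9% were called in at least 1 of them, and of genes with a mean of at least 5 CPM 29.9%. The heat map of log2 changes shows these 75 by class.

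**Figure D2:**
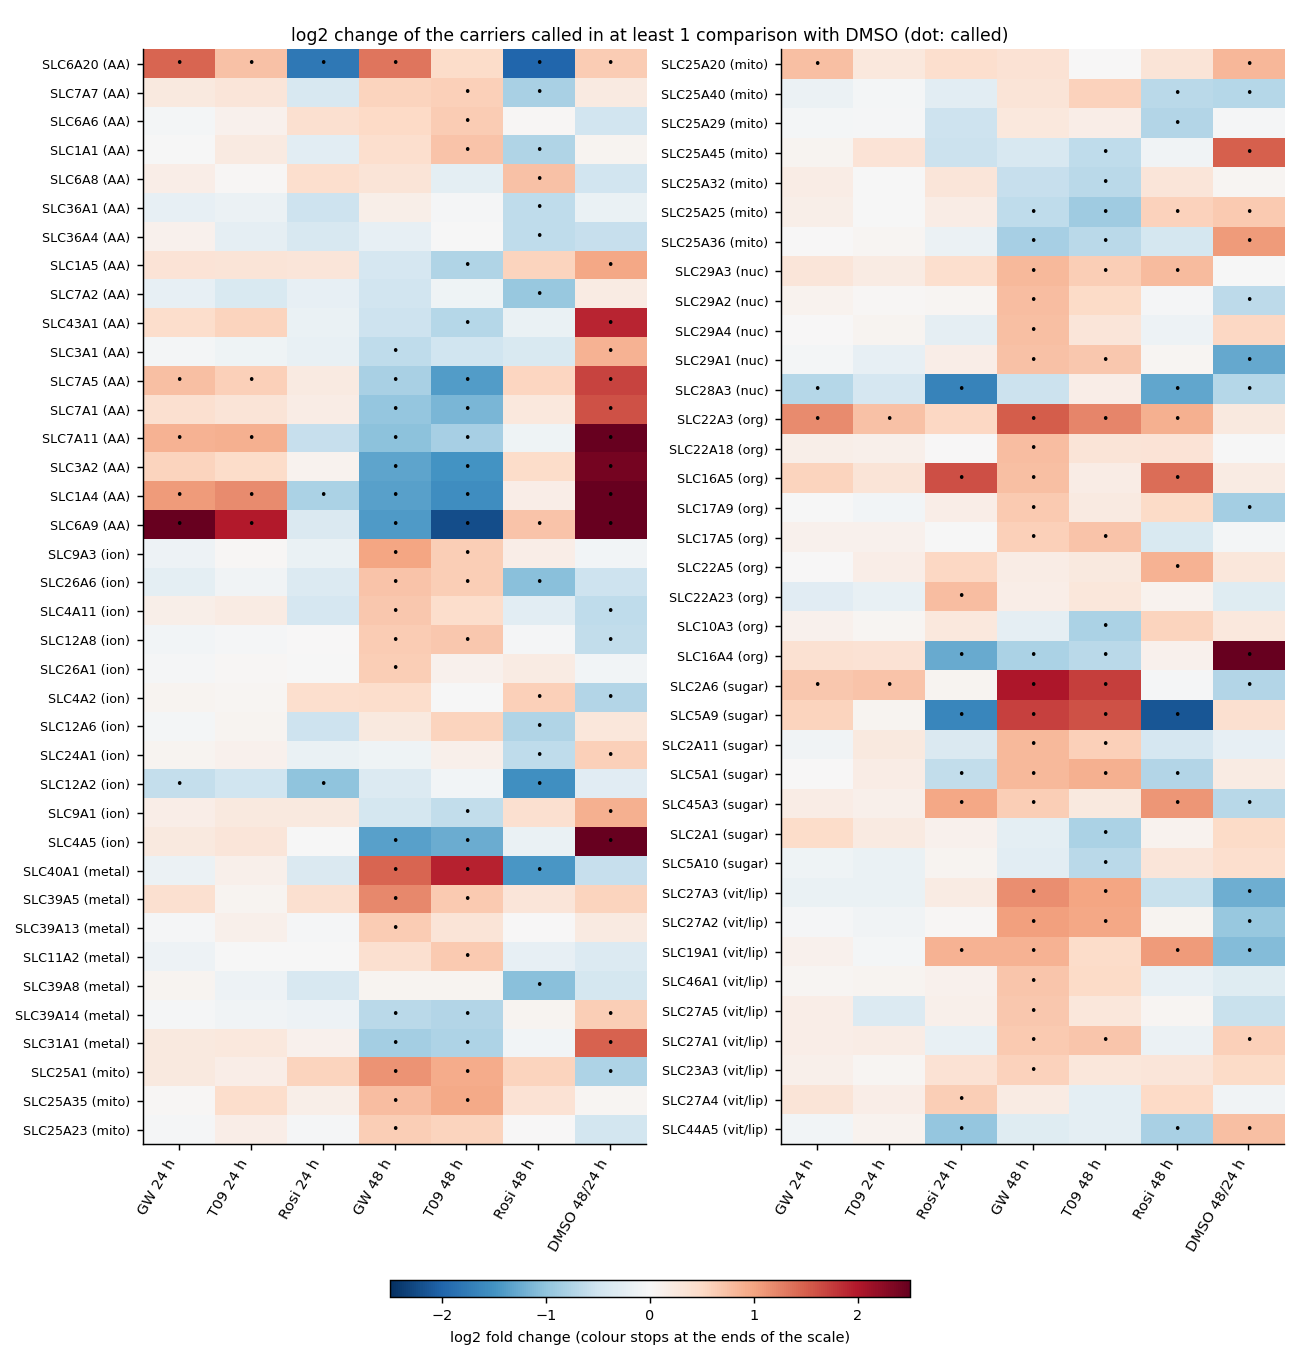
Heat map of the log2 fold change of the 75 members called in at least 1 of the 6 comparisons with DMSO (columns 1 to 6 of each panel) and between the DMSO groups (column 7), with genes in rows, grouped by class, red for higher, blue for lower and a dot for a call. The 8 ATF4 targets, in the block of amino acid carriers ending with SLC6A9, are red at 24 h and blue at 48 h with the LXR agonists. They are red in the last column, where SLC6A9 differed by 5.97.

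Every drug had some amino acid carriers called at each time, but not the same ones throughout. Of the 20 members of this class, 5 were higher and 0 lower with GW3965 at 24 h, and 5 and 0 with T0901317. At 48 h the counts were 1 and 7 with GW3965 and 3 and 8 with T0901317. With rosiglitazone 0 were higher and 2 lower at 24 h, then 2 and 6 at 48 h. Of genes with a mean of at least 5 CPM, rosiglitazone gave 2.29% higher and 3% lower at 24 h. At 48 h it gave 5.66% and 6.43%. The turn between the time points rested on the 8 ATF4 targets, all of them members, namely SLC6A9, SLC1A4, SLC7A11, SLC3A2, SLC7A1, SLC7A5, SLC43A1 and SLC1A5. Of these, 4 were higher and 0 lower with GW3965 at 24 h and 0 and 6 at 48 h, and with T0901317 the counts were 4 and 0 and then 0 and 8. All 8 were called lower in the test of the response at 48 h against that at 24 h, for GW3965 and for T0901317. This held in every alternative fit at the 1.5-fold limit. Of genes with a mean of at least 5 CPM, 10.1% and 9.21% were lower in this test. Against DMSO, 1.41% and 1.02% of such genes were higher at 24 h, and 9.48% and 9.02% were lower at 48 h. The list was chosen with earlier results of these data known, so its counts are no independent support for the grouping.

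SLC6A9, the glycine transporter of the plasma membrane, had the widest range of the members over the 8 group means. Its TMM-scaled CPM in the 4 DMSO libraries at 24 h was 1.20, 1.05, 1.45 and 1.12. It was 3.91, 6.35, 8.04 and 9.25 with GW3965 and 4.58, 4.04, 5.55 and 4.95 with T0901317. Every library of both agonists lay above all DMSO libraries. The log2 change was 2.5 ± 0.24 (SE) with GW3965 (edgeR adjusted p 6.22e-07) and 1.98 ± 0.24 with T0901317 (adjusted p 3.23e-05). At 48 h the DMSO libraries were at 86.6, 66.2, 74.4 and 78.4 CPM, far above every library of 24 h. GW3965 libraries were then at 27.9, 22.2, 39.0 and 24.9 CPM, and T0901317 libraries were at 11.9, 14.1, 17.1 and 22.8 CPM. Both groups lay wholly below DMSO, with log2 changes of -1.42 ± 0.19 (edgeR adjusted p 4.23e-06) and -2.21 ± 0.19 (adjusted p 2.81e-08). With rosiglitazone SLC6A9 was at 0.778, 0.721, 1.45 and 0.854 CPM at 24 h, overlapping DMSO, and at 93.4, 126, 160 and 126 CPM at 48 h, above all DMSO libraries. That difference of 0.71 ± 0.18 (edgeR adjusted p 0.0046) was not called when any of 5 single libraries was left out (0.57 to 0.73, adjusted p 0.0106 to 0.0184) or with library totals as scaling (0.52).

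SLC1A4, an exchanger of alanine, serine and cysteine, followed the same course from a higher level. DMSO libraries at 24 h held 8.19, 9.97, 7.96 and 8.56 CPM, GW3965 libraries 14.4, 16.9, 19.0 and 22.5, and T0901317 libraries 18.7, 19.3, 20.7 and 20.0. The groups did not overlap, and the log2 changes were 1.07 ± 0.11 and 1.19 ± 0.11 (edgeR adjusted p 2.54e-06 and 1.29e-06). Rosiglitazone libraries lay below DMSO at 24 h, at 4.38, 5.51, 5.12 and 5.19 CPM (-0.78 ± 0.12, edgeR adjusted p 0.000115). At 48 h DMSO libraries held 109, 102, 98.9 and 102 CPM. GW3965 libraries held 39.5, 35.1, 47.7 and 38.8, and T0901317 libraries held 28.6, 29.5, 37.8 and 43.8. They were again wholly separate, now in the other direction, with log2 changes of -1.36 ± 0.13 and -1.56 ± 0.14 (edgeR adjusted p 1.18e-07 and 2.44e-08). Rosiglitazone libraries, at 88.9, 119, 140 and 119 CPM, overlapped DMSO.

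SLC7A11, which takes up cystine in exchange for glutamate and so feeds glutathione synthesis, had little spread between DMSO libraries. They held 59.8, 57.7, 60.1 and 55.2 CPM at 24 h and 417, 422, 420 and 425 CPM at 48 h. With GW3965 the level was 107 ± 3.26 CPM (SD, n = 4) at 24 h and 207 ± 29.2 at 48 h, and with T0901317 it was 107 ± 9.01 and 238 ± 48.4. All libraries of both agonists were above DMSO at 24 h (0.88 ± 0.06 for each) and below it at 48 h (-1.03 ± 0.12 and -0.82 ± 0.11), with edgeR adjusted p between 6.88e-09 and 9.29e-06. With rosiglitazone it was 39.0 ± 2.09 CPM at 24 h, below all DMSO libraries by a log2 change of -0.58 ± 0.06 (edgeR adjusted p 7.25e-07) that lay just short of 1.5-fold. It passed that limit with library totals as scaling (-0.68) and without any of 3 single libraries.

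SLC3A2 and SLC7A5 are the heavy and the light chain of the exchanger that brings in leucine and other large neutral amino acids, and SLC3A2 is also the partner of SLC7A11. SLC3A2 rose to 1.48-fold of DMSO with GW3965 at 24 h (0.56 ± 0.05, edgeR adjusted p 7.4e-07), under the fold limit, and all 4 libraries of each agonist lay above DMSO. At 48 h it was 973 ± 61.4 CPM (SD, n = 4) with DMSO, 391.9 ± 51.9 with GW3965 and 345 ± 41.8 with T0901317, with log2 changes of -1.32 ± 0.12 and -1.50 ± 0.12 (edgeR adjusted p 2.82e-08 and 6e-09). SLC7A5 was 556 ± 52.6 CPM with DMSO at 24 h, 936 ± 182 with GW3965 (0.75 ± 0.12, edgeR adjusted p 0.00027) and 842 ± 84.0 with T0901317 (0.60 ± 0.11, adjusted p 0.00432). The T0901317 call was lost without any of 6 single libraries (adjusted p 0.0107 to 0.0218) and with library totals as scaling (0.56). At 48 h SLC7A5 was 1784 ± 105 CPM with DMSO, 1023 ± 124 with GW3965 (-0.81 ± 0.10, edgeR adjusted p 3.52e-06) and 680 ± 92.5 with T0901317 (-1.39 ± 0.11, adjusted p 4.41e-09). In the rosiglitazone libraries at 48 h both chains lay above all DMSO libraries, at 1361 ± 248 and 2612 ± 364 CPM, but under the fold limit (0.47 ± 0.11 and 0.53 ± 0.10).

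None of the remaining ATF4 targets was called with an LXR agonist at 24 h. SLC7A1, the carrier of arginine and lysine, had log2 changes of 0.40 and 0.33 with GW3965 and T0901317 at 24 h, under the fold limit, and of -0.97 and -1.13 at 48 h, both called. SLC43A1, a carrier of large neutral amino acids, had 0.43 and 0.55 at 24 h and -0.52 and -0.71 at 48 h, the last of which was called. SLC1A5, the main glutamine carrier of many tumour cells, had 0.34 and 0.32 at 24 h and -0.42 and -0.75 at 48 h, again with the last called. In replicate 1 of GW3965 at 24 h, SLC6A9, SLC1A4, SLC7A5, SLC43A1 and SLC1A5 were each at the lowest value of the group (3.91, 14.4, 675, 45.9 and 908 CPM). Without it, GW3965 at 24 h still gave 4 called targets.

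**Figure D3:**
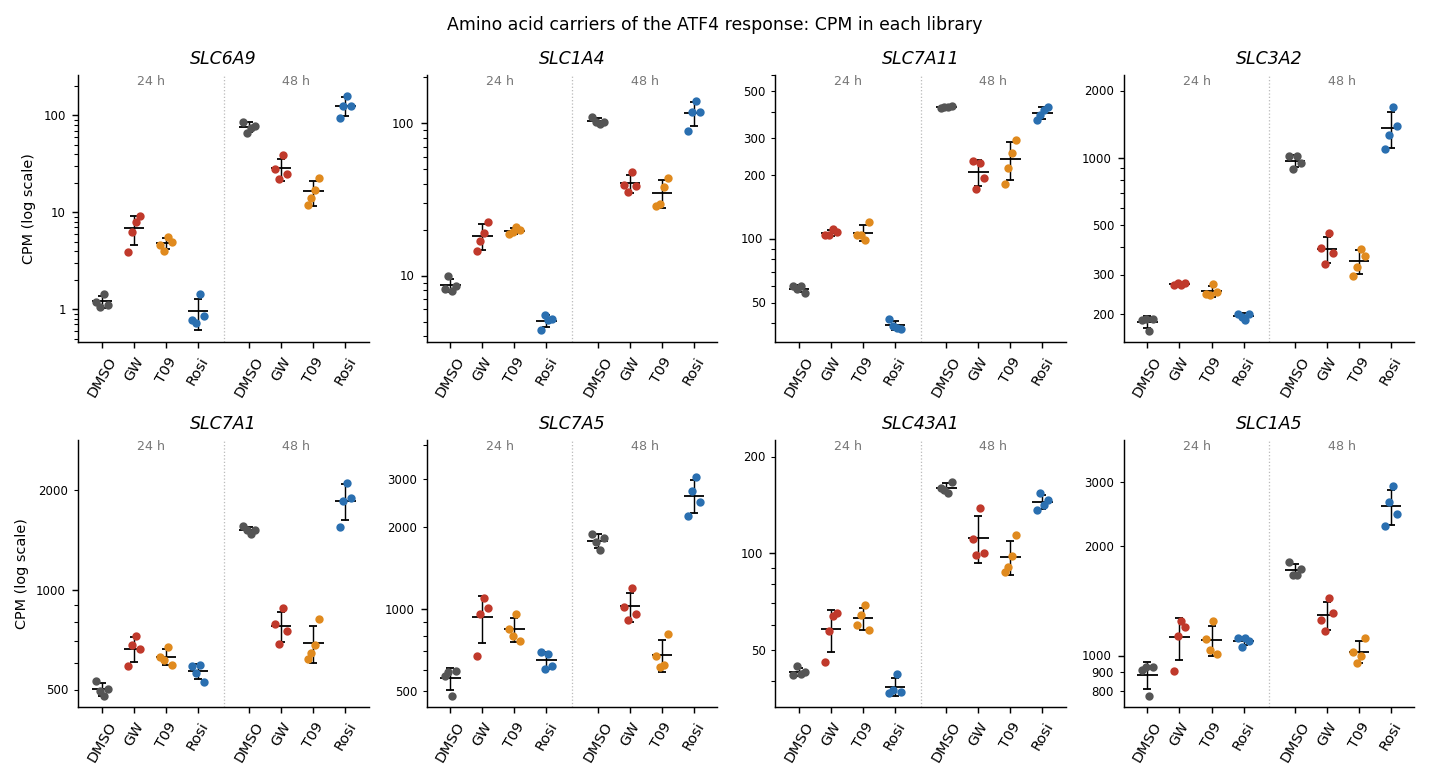
TMM-scaled CPM (log scale) of the 8 amino acid carriers known as ATF4 targets in each of the 32 libraries, by group, with the mean (line) and SD (bars, n = 4). DMSO libraries at 48 h lie above those at 24 h for all 8 genes, and the LXR agonists (GW, T09) lie above DMSO at 24 h and below it at 48 h for SLC6A9, SLC1A4, SLC7A11 and SLC3A2.

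The DMSO groups themselves differed in these genes. Between DMSO at 48 h and at 24 h, 24 members were higher and 22 lower (29.7%), where 20.4% of all tested genes and 22.8% of genes with a mean of at least 5 CPM were called. All 8 ATF4 targets were among the higher ones, with log2 differences of 5.97 ± 0.26 (SLC6A9), 3.57 ± 0.14 (SLC1A4), 2.85 ± 0.10 (SLC7A11), 2.40 ± 0.10 (SLC3A2), 1.90 ± 0.10 (SLC43A1), 1.68 ± 0.12 (SLC7A5), 1.60 ± 0.08 (SLC7A1) and 0.96 ± 0.09 (SLC1A5), at edgeR adjusted p of 4.56e-11 or less. Outside this list, SLC16A4, a monocarboxylate carrier, differed by 2.62 ± 0.16, SLC4A5, a sodium-bicarbonate cotransporter, by 2.52 ± 0.12 and SLC31A1, the copper importer, by 1.47 ± 0.07. The time and the table in which a library was deposited cannot be told apart in this comparison. For SLC6A9, SLC16A4 and SLC4A5 the lowest group mean was under 5 CPM, with rosiglitazone at 24 h (0.952, 1.79 and 3.285 CPM). These 3 passed the limit through groups in which they were higher, so the limit favours such differences. Members lower at 48 h included the nucleoside carrier SLC29A1 (-1.27 ± 0.11), the fatty acid carrier SLC27A3 (-1.23 ± 0.13) and the zinc importer SLC39A10 (-1.15 ± 0.10).

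Other amino acid carriers gave a different picture. SLC6A20, a proline and imino acid carrier of epithelial surfaces, held 9.89, 9.65, 9.64 and 10.9 CPM with DMSO at 24 h. With GW3965 it held 24.8, 27.5, 29.4 and 27.9, with T0901317 17.2, 13.7, 19.0 and 16.3, and with rosiglitazone 2.54, 2.31, 3.76 and 3.05. No 2 groups overlapped. The log2 changes were 1.45 ± 0.11, 0.74 ± 0.11 and -1.79 ± 0.13 (edgeR adjusted p 2.21e-08, 0.000344 and 4.48e-09). At 48 h the order was the same, at 15.5 ± 1.48 CPM (SD, n = 4) in DMSO libraries, 39.5 ± 2.89 in GW3965 libraries, 21.2 ± 1.38 in T0901317 libraries and 3.98 ± 0.487 in rosiglitazone libraries. The changes were then 1.35 ± 0.08, 0.46 ± 0.09 (under the fold limit) and -1.98 ± 0.10. Called lower with rosiglitazone at 48 h were also SLC7A2 (-0.94), SLC7A7 (-0.81), SLC1A1 (-0.74), SLC36A1 (-0.64) and SLC36A4 (-0.63). They are carriers of cationic amino acids, glutamate and, for the SLC36 family, other amino acids. The SLC36A1 call was lost without rosiglitazone replicate 1 (-0.58), and the SLC36A4 call without any of 3 single libraries (-0.58 to -0.55). The creatine carrier SLC6A8 was higher (0.73), though not with library totals as scaling. SLC7A7, SLC1A1 and the taurine carrier SLC6A6 were called higher with T0901317 at 48 h (0.60, 0.72 and 0.63), the first lost without DMSO replicate 3 or T0901317 replicate 3 (0.49 to 0.58). SLC3A1, the partner chain of a carrier of cystine and basic amino acids, was called lower with GW3965 (-0.64).

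Among the 15 sugar carriers, 5 were higher and 0 lower with GW3965 at 48 h and 4 and 2 with T0901317. Of genes with a mean of at least 5 CPM, 8.99% were higher and 9.48% lower with GW3965. With T0901317 these shares were 7.15% and 9.02%. SLC2A6, a hexose carrier of lysosomal membranes, held 8.14, 9.59, 7.35 and 9.35 CPM with DMSO at 48 h. GW3965 libraries held 35.9, 39.7, 28.4 and 36.6, and T0901317 libraries held 34.5, 27.8, 20.7 and 31.3. Each of these was above all DMSO libraries, and the log2 changes of 2.03 ± 0.18 and 1.73 ± 0.17 (edgeR adjusted p 2.21e-08 and 1.67e-07) were the largest increase with GW3965 and the next to largest with T0901317 among the members. At 24 h SLC2A6 was 14.3 ± 0.931 CPM (SD, n = 4) with DMSO, 22.9 ± 4.29 with GW3965 and 23.4 ± 3.06 with T0901317. Those changes, 0.68 ± 0.13 and 0.71 ± 0.13 (edgeR adjusted p 0.00261 and 0.00327), were lost when 1 of 4 and 1 of 6 single libraries was left out (adjusted p 0.0104 to 0.0137 and 0.0126 to 0.0176). Rosiglitazone libraries overlapped DMSO at both times (0.07 and -0.04).

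SLC5A9, a sodium-coupled carrier of mannose and related sugars, moved in opposite directions with the 2 kinds of drug. At 48 h DMSO libraries held 6.44, 5.99, 4.76 and 4.69 CPM, GW3965 libraries 15.6, 18, 22.5 and 15.9, and T0901317 libraries 13.9, 15.9, 17.0 and 18.6. Rosiglitazone libraries held 1.80, 1.78, 0.572 and 0.851. The agonists of LXR lay wholly above DMSO (1.72 ± 0.19 and 1.59 ± 0.19, edgeR adjusted p 4.28e-07 and 1.31e-06) and rosiglitazone wholly below it (-2.14 ± 0.24, adjusted p 1.06e-06). At 24 h only the rosiglitazone change was called among the 3 drugs (-1.64 ± 0.18, edgeR adjusted p 1.7e-06). SLC5A1, the sodium-glucose cotransporter of the intestinal brush border, went the same ways at 48 h with smaller changes. It was 10.9 ± 0.578 CPM (SD, n = 4) with DMSO, 19.1 ± 1.80 in GW3965 libraries (0.80 ± 0.09), 20.1 ± 1.53 in T0901317 libraries (0.88 ± 0.09) and 6.66 ± 0.864 with rosiglitazone (-0.74 ± 0.10), with edgeR adjusted p of 8.01e-06 or less. Its call with rosiglitazone at 24 h (-0.62 ± 0.11) was lost without DMSO replicate 3 (-0.53) or without rosiglitazone replicate 1 or 4.

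SLC2A11 was called higher with both agonists at 48 h (0.81 and 0.60, the latter lost without any of 4 single libraries), and SLC5A10 was called lower with T0901317 (-0.68). SLC2A1, the widespread glucose transporter, was called lower with T0901317 at 48 h, at 517 ± 60.4 CPM against 897 ± 47.3 with DMSO (SD, n = 4; -0.79 ± 0.07, edgeR adjusted p 3.59e-08). With GW3965 it was 765 ± 21.7 CPM, a log2 change of -0.23 ± 0.07 (edgeR adjusted p 0.0105). SLC45A3, a sugar carrier first known from prostate, rose with rosiglitazone at 24 h, from 79.1 ± 8.03 to 155 ± 8.51 CPM (0.97 ± 0.11, edgeR adjusted p 2.75e-06), and at 48 h, from 49.0 ± 4.53 to 107 ± 10.9 CPM (1.10 ± 0.10, adjusted p 8.65e-08). Its call with GW3965 at 48 h (0.61 ± 0.10) was lost without DMSO replicate 3 or GW3965 replicate 2 (0.55 to 0.56) and with library totals as scaling (0.57).

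**Figure D4:**
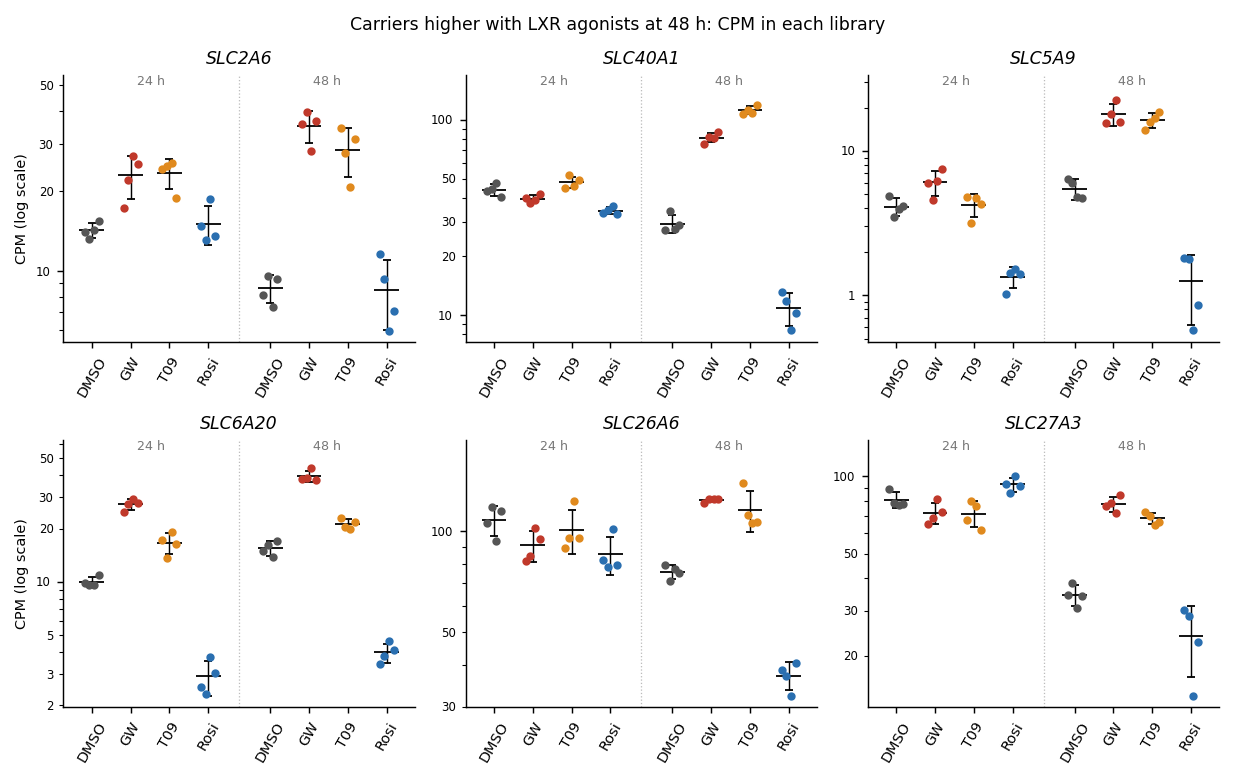
TMM-scaled CPM (log scale) of 6 members called higher with GW3965 at 48 h in each of the 32 libraries, by group, with the mean (line) and SD (bars, n = 4). At 48 h the GW3965 and T0901317 libraries lie above all DMSO libraries in each panel, and rosiglitazone libraries lie below them for SLC40A1, SLC5A9, SLC6A20, SLC26A6 and SLC27A3.

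Of the carriers of vitamins, choline and lipids, 7 of 16 were higher with GW3965 at 48 h, with 0 lower. The calls of SLC27A1, SLC27A5 and SLC23A3 among them were each lost in some fits that left out a single library. With T0901317 the counts were 3 and 0, and with rosiglitazone 1 and 1. Of genes with a mean of at least 5 CPM, 8.99%, 7.15% and 5.66% were higher with the 3 drugs, and 9.48%, 9.02% and 6.43% lower. The class included all 5 expressed genes of SLC27, proteins that take up fatty acids and join them to coenzyme A. SLC27A3 held 34.4, 38.5, 30.7 and 34.3 CPM with DMSO, 76.6, 78.5, 71.8 and 84.4 with GW3965 and 72.5, 70.0, 64.7 and 66.5 with T0901317 (1.17 ± 0.15 and 0.99 ± 0.15, edgeR adjusted p 2.33e-06 and 1.85e-05). Its rosiglitazone libraries, at 30.1, 28.7, 14.0 and 22.7 CPM, were below DMSO by less than the fold limit (-0.55 ± 0.15, edgeR adjusted p 0.00666). SLC27A2 went from 12.6 ± 0.872 CPM (SD, n = 4) with DMSO to 25.5 ± 2.11 with GW3965 and 24.5 ± 0.338 with T0901317 (1.02 ± 0.07 and 0.96 ± 0.07, edgeR adjusted p 2.06e-09 and 4.85e-09), and with rosiglitazone it was 13.3 ± 0.995. SLC27A1 was called higher with both LXR agonists (0.66 and 0.70) and SLC27A5 with GW3965 (0.67), but the GW3965 calls were lost without DMSO replicate 1 (0.56) and without GW3965 replicate 1 (0.58). SLC27A4 had 0.21 with GW3965 and -0.25 with T0901317 at 48 h. It rose with rosiglitazone at 24 h (0.61 ± 0.08, edgeR adjusted p 7.55e-06), a call lost without DMSO replicate 3 (0.58) and with library totals as scaling (0.51).

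The list of fatty acid and carnitine carriers, which joins SLC27 with SLC25A20 and SLC22A5, had 4 of 7 members higher with GW3965 at 48 h and 3 with T0901317, with 0 lower. Of genes with a mean of at least 5 CPM, 8.99% and 7.15% were higher. The GW3965 calls of SLC27A1 and SLC27A5 were each lost when a single library was left out. This list was also chosen with earlier results of these data known. SLC25A20, the carnitine-acylcarnitine carrier of mitochondria and a known target of PPAR receptors, was called only with GW3965 at 24 h among the 6 comparisons (0.75 ± 0.13, edgeR adjusted p 0.000671). With rosiglitazone it had 0.43 ± 0.13 at 24 h (adjusted p 0.0218). SLC22A5, the carnitine importer, was called higher with rosiglitazone at 48 h, at 16.9, 19.9, 26.8 and 21.5 CPM against 11.4, 12.3, 11.9 and 10.6 with DMSO (0.86 ± 0.11, edgeR adjusted p 5.16e-06).

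The folate carrier SLC19A1 rose with rosiglitazone at both times. It held 128, 139, 117 and 146 CPM with DMSO and 257, 230, 243 and 246 with rosiglitazone at 24 h (0.87 ± 0.08, edgeR adjusted p 1.18e-07), and 62.9 ± 4.91 against 133 ± 25.2 CPM (SD, n = 4) at 48 h (1.06 ± 0.11, adjusted p 5.54e-07). With GW3965 it was called at 48 h (0.86 ± 0.11), as was the intestinal folate carrier SLC46A1 (0.68). SLC23A3, of the ascorbate carrier family, was called with GW3965 (0.59), and the call was lost without any of 3 single libraries (0.54 to 0.56). SLC44A5, of the choline carrier family, fell with rosiglitazone from 10.8 ± 1.39 to 5.54 ± 0.894 CPM at 24 h and from 18.2 ± 0.672 to 10.5 ± 1.39 CPM at 48 h (-0.96 ± 0.11 and -0.82 ± 0.10, edgeR adjusted p 3.02e-06 and 1.62e-06).

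Of 22 carriers of inorganic ions and pH, 5 were higher and 1 lower with GW3965 at 48 h, 3 and 2 with T0901317, and 1 and 4 with rosiglitazone. Among genes with a mean of at least 5 CPM, 8.99%, 7.15% and 5.66% were higher, and 9.48%, 9.02% and 6.43% lower. SLC12A2, the basolateral sodium-potassium-chloride cotransporter of secreting epithelia, held 624, 642, 769 and 642 CPM with DMSO at 24 h and 325, 343, 353 and 323 with rosiglitazone. At 48 h it held 527, 595, 542 and 550 CPM with DMSO and 229, 211, 150 and 184 with rosiglitazone. Rosiglitazone libraries were thus below DMSO at both times, by -1.0 ± 0.06 and -1.54 ± 0.10 (edgeR adjusted p 1.09e-09 and 3.25e-10). GW3965 lowered it to 445 ± 6.79 CPM (SD, n = 4) at 24 h (-0.59 ± 0.06, edgeR adjusted p 3.5e-06), a call lost without DMSO replicate 3 (-0.52), whose 769 CPM was the highest value, without GW3965 replicate 1 (-0.58) or without the filter on low counts (-0.58). All T0901317 libraries of 24 h were also below DMSO, by less than the fold limit (-0.50 ± 0.06, edgeR adjusted p 6.43e-05). At 48 h the change with GW3965 was -0.35 ± 0.09 and with T0901317 -0.08 ± 0.09.

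SLC9A3, the sodium-proton exchanger of the brush border, was 16.8 ± 1.04 CPM (SD, n = 4) with DMSO at 48 h and 33.6 ± 2.87 with GW3965 (0.99 ± 0.11, edgeR adjusted p 4.33e-07). With T0901317 it was 25.9 ± 3.72 CPM (0.62 ± 0.11, adjusted p 0.000116), a call lost without any of 3 single libraries (0.55 to 0.57). SLC26A6, an apical anion exchanger, held 79.3, 71.0, 76.9 and 74.9 CPM with DMSO at 48 h, 121, 125, 124 and 125 with GW3965, and 38.6, 37.0, 32.2 and 40.5 with rosiglitazone. The changes were 0.71 ± 0.08 and -1.05 ± 0.08 (edgeR adjusted p 6.06e-07 and 7.77e-09), and T0901317 gave 0.61 ± 0.08, a call lost without DMSO replicate 2 (0.58) or T0901317 replicate 1 (0.51). SLC4A5 was the member lowered most by GW3965 at 48 h after SLC6A9, from 19.3, 18.4, 20.0 and 18.5 CPM to 6.97, 6.37, 8.79 and 7.47 (-1.37 ± 0.11, edgeR adjusted p 5.74e-09). T0901317 gave -1.24 ± 0.11 and rosiglitazone -0.17 ± 0.10. The bicarbonate exchanger SLC4A2 was called higher with rosiglitazone at 48 h (0.59), but not without any of 3 single libraries (0.53 to 0.56) or with library totals as scaling. SLC26A1, called with GW3965 (0.61) but not without DMSO replicate 3 (0.54), overlaps IDUA in the genome, and as the strand setting of the counting is not given, reads of the pair cannot be told apart.

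The list of brush border and colonocyte surface carriers had 6 expressed genes of 16 (SLC26A6, SLC9A3, SLC5A1, SLC3A1, SLC4A4 and SLC12A2). At 48 h GW3965 gave 3 higher and 1 lower, T0901317 3 and 0, and rosiglitazone 0 and 3. SLC12A2, which is basolateral, was among those lower with rosiglitazone. Of genes with a mean of at least 5 CPM, 8.99%, 7.15% and 5.66% were higher, and 9.48%, 9.02% and 6.43% lower. This list, too, was chosen with earlier results of these data known. SLC26A3, the chloride-bicarbonate exchanger that marks mature colonocytes, averaged 0.025 CPM and was no member, nor was SLC2A3, a glucose transporter of neurons, at 0.027 CPM.

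Among 24 metal carriers none was called at 24 h with any drug in edgeR, and at 48 h 3 were higher and 2 lower with each LXR agonist, and 0 and 2 with rosiglitazone. These were 20.8%, 20.8% and 8.33% of the class, beside 18.5%, 16.2% and 12.1% of genes with a mean of at least 5 CPM. At 24 h 6 metal carriers had an unadjusted p under 0.05 with GW3965, 4 with T0901317 and 8 with rosiglitazone, and DESeq2 called 0 with each drug. SLC40A1 is ferroportin, the exporter of iron from cells. At 48 h it held 27.3, 34.1, 27.6 and 28.8 CPM with DMSO, 75.5, 81.3, 80.8 and 86.2 with GW3965, and 107, 112, 109 and 119 with T0901317. Rosiglitazone libraries held 13.1, 11.9, 8.36 and 10.2. The 4 groups did not overlap, and the log2 changes were 1.46 ± 0.10, 1.93 ± 0.10 and -1.45 ± 0.11 (edgeR adjusted p 8.04e-10, 1.9e-11 and 2.75e-09). At 24 h the changes were -0.15 ± 0.06, 0.13 ± 0.06 and -0.36 ± 0.06. Between the time points the response differed by 1.61 ± 0.12 with GW3965, 1.80 ± 0.12 with T0901317 and -1.08 ± 0.12 with rosiglitazone (edgeR adjusted p 3.74e-12, 3.36e-13 and 9.25e-07).

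The copper importer SLC31A1 was lower at 48 h with both LXR agonists, at 56.9 ± 4.66 and 60.1 ± 5.48 CPM against 102 ± 3.49 with DMSO (SD, n = 4; -0.85 ± 0.08 and -0.77 ± 0.08, edgeR adjusted p 3.16e-08 and 1.26e-07). SLC39A14, an importer of zinc and iron, was lower too (-0.67 and -0.74), and SLC39A5, a zinc importer, was higher (1.20 and 0.66, the latter lost without DMSO replicate 2, at 0.58). SLC39A8, a further importer of zinc, was called lower with rosiglitazone at 48 h, at 6.03 ± 0.868 against 12.2 ± 0.964 CPM (-1.04 ± 0.10, edgeR adjusted p 1.22e-07). The iron importer SLC11A2 was called higher with T0901317 (0.65).

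Mitochondrial carriers form the single family SLC25, the largest here with 34 members. At 24 h 1 member was called with GW3965, SLC25A20, and 0 with T0901317 or rosiglitazone, where 4 and 18 members had an unadjusted p under 0.05 in edgeR and DESeq2 also called 0. At 48 h 3 were higher and 2 lower with GW3965, 2 and 4 with T0901317, and 1 and 2 with rosiglitazone. The called shares of 14.7%, 17.6% and 8.82% stand beside those of all genes with a mean of at least 5 CPM (18.5%, 16.2% and 12.1%). SLC25A1 exports citrate from mitochondria for fatty acid and sterol synthesis. It held 276, 293, 256 and 286 CPM with DMSO at 48 h, 610, 624, 582 and 615 with GW3965 and 615, 484, 487 and 526 with T0901317. Both agonists lay above DMSO (1.13 ± 0.11 and 0.93 ± 0.11, edgeR adjusted p 1.37e-07 and 1.76e-06). With rosiglitazone it was 415 ± 90.5 CPM (SD, n = 4), above all DMSO libraries but under the fold limit (0.56 ± 0.11). SLC25A35 was also higher with both LXR agonists (0.76 and 0.95). SLC25A36, a carrier of pyrimidine nucleotides, and SLC25A25, an ATP and phosphate carrier, were lower with both (-0.84 and -0.68, and -0.64 and -0.89). SLC25A25 was called higher with rosiglitazone (0.59), at the fold limit, but not without any of 3 single libraries (0.56 to 0.57) or with library totals as scaling. SLC25A3, the phosphate carrier, varied little, with group means between 419 and 508 CPM.

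Of 10 carriers of nucleosides and nucleotide sugars, 4 were higher and 0 lower with GW3965 at 48 h, and 2 and 0 with T0901317. The shares called higher among genes with a mean of at least 5 CPM were 8.99% and 7.15%. The 4 called members were SLC29A1 to SLC29A3, which let nucleosides flow down their gradient, and SLC29A4 of the same family, which mainly carries organic cations. Their changes with GW3965 were 0.72, 0.78, 0.80 and 0.75, and those with T0901317 were 0.67, 0.47, 0.61 and 0.31, of which the first and the third were called. The SLC29A1 call was lost without DMSO replicate 3 (0.56) and the SLC29A3 call without any of 3 single libraries (0.52 to 0.57). SLC29A3 was also called higher with rosiglitazone at 48 h (0.79). SLC28A3, which brings in nucleosides together with sodium, went lower with rosiglitazone. It held 9.52, 7.86, 10.1 and 11.1 CPM with DMSO and 3.06, 3.03, 3.19 and 2.84 with rosiglitazone at 24 h (-1.68 ± 0.14, edgeR adjusted p 3.01e-08). At 48 h it held 5.50, 6.34, 5.93 and 5.79 against 2.75, 2.79, 1.77 and 2.42 CPM (-1.30 ± 0.16, adjusted p 2.27e-06). With a mean of 5.7 CPM over all libraries, SLC28A3 passed the 5 CPM limit through the groups in which it was higher. The limit thus favours a lower level with rosiglitazone. GW3965 lowered it at 24 h (-0.72 ± 0.13, adjusted p 0.00111). The 5 expressed SLC35A genes, which carry nucleotide sugars, were called in none of the 6 comparisons with DMSO.

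Among 12 carriers of organic anions, cations and monocarboxylates, 5 were higher and 1 lower with GW3965 at 48 h, 2 and 2 with T0901317, and 3 and 0 with rosiglitazone. Beside these, 8.99%, 7.15% and 5.66% of genes with a mean of at least 5 CPM were higher. The shares lower were 9.48%, 9.02% and 6.43%. SLC16A5, of the monocarboxylate family, was the member raised most by rosiglitazone. It held 81.5, 84.1, 80.0 and 93.5 CPM with DMSO and 265, 254, 270 and 248 with rosiglitazone at 24 h, and 109, 99.8, 81.4 and 98.1 against 256, 279, 267 and 242 CPM at 48 h. The groups were far apart at both times (1.61 ± 0.08 and 1.40 ± 0.08, edgeR adjusted p 6.09e-11 and 1.29e-10). GW3965 raised it less (0.56 ± 0.08 at 24 h, under the fold limit, and 0.74 ± 0.08 at 48 h). SLC22A3, a carrier of organic cations, was at 5.16 ± 0.414 CPM (SD, n = 4) with DMSO at 24 h and at 11.8 ± 0.54 with GW3965 and 8.54 ± 0.756 with T0901317, both called (1.19 ± 0.09 and 0.72 ± 0.09, edgeR adjusted p 3.22e-08 and 6.43e-05). With rosiglitazone it was 7.41 ± 0.704 CPM at 24 h, under the fold limit (0.52 ± 0.09, adjusted p 0.000452). It was called higher with every drug at 48 h, at 17.5 ± 1.15 CPM with GW3965, 14.2 ± 0.190 with T0901317 and 11.6 ± 1.65 with rosiglitazone against 6.11 ± 0.535 with DMSO (SD, n = 4; 1.51 ± 0.09, 1.22 ± 0.09 and 0.90 ± 0.10, edgeR adjusted p of 5.32e-07 or less).

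SLC16A4 fell with rosiglitazone at 24 h, from 4.0, 4.22, 4.68 and 4.29 CPM to 2.02, 1.79, 1.74 and 1.62 (-1.26 ± 0.11, edgeR adjusted p 8.22e-08), but not at 48 h (0.11 ± 0.17). The response differed between the times by 1.39 ± 0.24 (edgeR adjusted p 0.000498). It was lower with both LXR agonists at 48 h (-0.79 ± 0.18 and -0.68 ± 0.18), the latter lost without any of 4 single libraries (-0.68 to -0.58). SLC22A23 rose with rosiglitazone at 24 h, from 31.0 ± 1.82 to 53.4 ± 6.90 CPM (SD, n = 4; 0.78 ± 0.11, adjusted p 2.85e-05), and had 0.08 ± 0.09 at 48 h. The lactate carriers SLC16A1 and SLC16A3 were called in no comparison with DMSO, with log2 changes between -0.27 and 0.47.

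**Figure D5:**
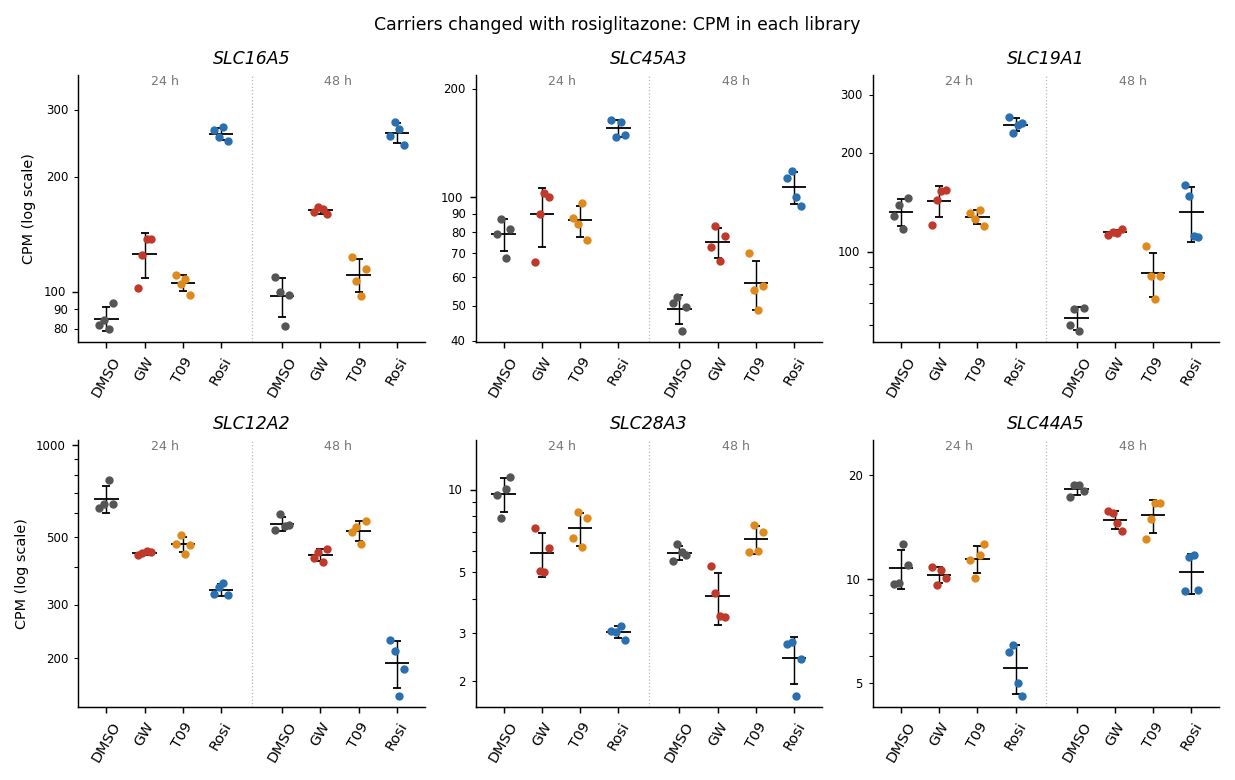
TMM-scaled CPM (log scale) of 6 members called with rosiglitazone at both times in each of the 32 libraries, by group, with the mean (line) and SD (bars, n = 4). Rosiglitazone libraries lie above all DMSO libraries of their time for SLC16A5, SLC45A3 and SLC19A1 and below them for SLC12A2, SLC28A3 and SLC44A5. SLC28A3 passed the 5 CPM limit through the groups in which it was higher.

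The drugs were also compared with each other at the same dose and time. Between the LXR agonists, 1 member was called at 24 h (0.645% of members, where 0.358% of all tested genes and 0.489% of those with a mean of at least 5 CPM were called) and 3 at 48 h (1.94% against 2.07% and 2.37%). SLC6A20 was higher with GW3965 than with T0901317 at both times (0.71 ± 0.10 and 0.89 ± 0.08, edgeR adjusted p 0.000588 and 1.71e-06). At 48 h SLC6A9 was higher (0.79 ± 0.19, adjusted p 0.00794) and SLC28A3 lower (-0.70 ± 0.14, adjusted p 0.00252) with GW3965, with overlapping libraries for SLC6A9, and between 1 and 9 members were called when single libraries were left out. The SLC6A9 call was lost without any of 6 single libraries (adjusted p 0.0107 to 0.042) and the SLC28A3 call without any of 4 (adjusted p 0.0103 to 0.0135). Under the fold limit, SLC40A1 was lower with GW3965 at 48 h (-0.47 ± 0.09, adjusted p 0.00201), and SLC7A5, SLC2A1 and SLC16A5 were higher (0.58 ± 0.10, 0.56 ± 0.07 and 0.56 ± 0.08, adjusted p of 0.000855 or less).

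Rosiglitazone and the LXR agonists differed more. At 24 h 20 members were called against GW3965 (5 higher and 15 lower with rosiglitazone, 12.9%, where 4.69% of all tested genes and 5.2% of those with a mean of at least 5 CPM were called) and 22 against T0901317 (5 and 17, 14.2% against 5.48% and 6.01%). At 48 h 66 members were called against GW3965 (19 and 47, 42.6% against 27.7%, and against 29.7% of genes with a mean of at least 5 CPM). Against T0901317, 73 were called (28 and 45, 47.1% against 30.6% and 32.5%), or 18 and 56 with library totals as scaling. The widest differences at 48 h were those of SLC5A9, which passed the 5 CPM limit through the groups in which it was higher. Its mean with rosiglitazone at 48 h was under that limit. SLC5A9 was lower with rosiglitazone than with GW3965 by -3.86 ± 0.23 and than with T0901317 by -3.73 ± 0.23 (edgeR adjusted p 4.45e-11 and 5.06e-11). In the same comparisons SLC6A20 differed by -3.32 ± 0.10 and -2.43 ± 0.10, and SLC40A1 by -2.91 ± 0.11 and -3.38 ± 0.11. Higher with rosiglitazone were 7 of the 8 ATF4 targets in each of these comparisons, led by SLC6A9 (2.13 ± 0.19 and 2.92 ± 0.20). Of genes with a mean of at least 5 CPM, 15.3% and 17.2% were higher. All carriers of vitamins, choline and lipids that differed from GW3965 were lower, 8 of 16, beside 14.4% of genes with a mean of at least 5 CPM.

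The response at 48 h differed from that at 24 h in 42 members with GW3965 (27.1%, where 12.9% of all tested genes and 18.7% of those with a mean of at least 5 CPM were called), in 36 with T0901317 (23.2% against 10.5% and 15.2%) and in 8 with rosiglitazone (5.16% against 1.46% and 2.35%). For the LXR agonists these included the ATF4 targets, lower, and SLC40A1, SLC2A6, SLC5A9, SLC27A2, SLC27A3, SLC25A1 and SLC26A6, higher. With rosiglitazone they were SLC1A4 and SLC16A4, higher, and SLC40A1, SLC7A2, SLC26A6, SLC22A23, SLC39A8 and SLC4A4, lower. Of these, SLC1A4 was lost without DMSO replicate 2 of 24 h (0.86, adjusted p 0.011), SLC26A6 without rosiglitazone replicate 3 of 24 h (-0.58), SLC22A23 without any of 6 single libraries and SLC39A8 without any of 4, so that 4 of the 8 did not depend on a single library.

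Over the 8 group means, the highest was 1.86 times the lowest in the median member, and at least 4 times the lowest in 13 members. The ratio was 133 for SLC6A9, 23.1 for SLC1A4, 16.2 for SLC16A4, 14.4 for SLC5A9 and 13.5 for SLC6A20. Of these, SLC6A9, SLC16A4, SLC5A9 and SLC6A20 had a lowest group mean under 5 CPM and passed the limit through the groups in which they were higher. This held for 5 of the 13, SLC4A5 among them. In 36 members it was under 1.5, with the smallest ratio, 1.13, in SLC25A13, a carrier of aspartate and glutamate. The next were SLC39A9, SLC30A9 and SLC35A2, at 1.14, 1.16 and 1.18.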

How the data were processed

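The authors deposited RNA-seq read counts per gene (symbol and Ensembl identifier) as whole-number counts, in 1 table for 24 h and 1 for 48 h with 16 libraries each. The submitters' processing notes name TopHat, Cufflinks and hg19, without versions. Neither the counting program nor the strand setting was given in the sources read for this work. ChIP-seq peak lists of the series were not used here. All value columns of the count tables were mapped to a labelled sample, and groups were taken from the labels.

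CPM was the count over the column total for choosing members, and TMM-scaled over all 32 libraries for the levels in the text. Counts of each time point (16 libraries) were tested with edgeR 4.0.16 in R 4.3.3 (TMM, filterByExpr, quasi-likelihood test), leaving 21781 genes at 24 h and 22470 at 48 h. The comparison of DMSO groups and the tests of the response at 48 h against 24 h used all 32 libraries and 23140 genes. P-values were adjusted by the Benjamini-Hochberg method over all genes tested, and calls were limited to changes of 1.5-fold or more with an adjusted p under 0.01. The biological coefficient of variation was 0.0981, 0.101 and 0.0998 in the 3 fits. The scripts were tested on simulated counts with known changes. Log2 changes are given with their standard error.

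The members, the substrate classes, the lists (ATF4 targets, brush border carriers, fatty acid and carnitine carriers) and the named genes were chosen with earlier results of these data known. Named genes were, per drug and time, the 3 members that increased most and the 3 that decreased most, among called members whose libraries did not overlap DMSO, 16 genes fixed by name (14 of them members), the genes on either side of the 5 CPM limit, and called members listed within their class. Those genes not covered by the first parts of this rule were shown with per-library values after their values were seen. Alternatives were DESeq2 1.42.0, library totals as scaling, no filter on low counts, only the groups compared, a replicate block, other fold limits and leaving out each library. Promoter sequences came from RefSeq (GRCh38.p14), matched by symbol. Python 3.11.15 with pandas 2.3.3 and numpy 2.4.6 made the summaries.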

Additional observations from a re-analysis of the deposited data

Results flagged for a closer look

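Over the 26 named genes and 8 groups, 8 of 208 sets of 4 libraries (3.85%) had a library whose gap to the others was large for the range of the set, where chance gives about 5%. Of these 8, 5 were DMSO replicate 3 at 24 h. In that library SLC12A2 was at 769 CPM (others 624 to 642), SLC1A5 at 773 (others 914 to 930.2), SLC27A4 at 48.1 (others 53.4 to 54.1), SLC2A1 at 587 (others 661 to 672) and SLC3A2 at 169 (others 189 to 191). SLC22A3 was at 6.91 CPM in DMSO replicate 3 at 48 h (others 5.76 to 5.93), SLC5A1 at 11.8 in DMSO replicate 2 at 48 h (others 10.6 to 10.7) and SLC6A20 at 43.8 in GW3965 replicate 3 at 48 h (others 37.8 to 38.4).

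The response to a drug at 48 h differed from that at 24 h by the same call limits in 32 of 78 tests over the named genes. Of genes with a mean of at least 5 CPM, 18.7% (GW3965), 15.2% (T0901317) and 2.35% (rosiglitazone) were called in these tests. As 15 of the 26 genes were named by the size of their change in these data, a high count is built into the choice. Values are log2 differences of the response, for GW3965 and then T0901317. Lower at 48 h were SLC6A9 (-3.92 and -4.19), SLC1A4 (-2.43 and -2.75), SLC7A11 (-1.90 and -1.70), SLC3A2 (-1.87 and -1.95), SLC4A5 (-1.62 and -1.54), SLC7A5 (-1.55 and -1.99), SLC1A5 (-0.75 and -1.06) and SLC2A1 (-0.70 and -1.02). Higher at 48 h were SLC40A1 (1.61 and 1.80), SLC2A6 (1.35 and 1.02), SLC5A9 (1.16 and 1.52), SLC27A2 (1.05 and 1.06), SLC25A1 (0.89 and 0.76) and SLC5A1 (0.80 and 0.70). For GW3965 alone the limits were passed by SLC9A3 (1.13) and SLC19A1 (0.76), and whether the 2 agonists differ in this was not tested. For rosiglitazone they were passed by SLC1A4 (0.95) and SLC40A1 (-1.08).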

How the results depend on the processing

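With DESeq2 and with only the groups compared in the fit, the member counts against DMSO moved by less than 1.5 times. Of the 72 called values of the named genes, 63 stayed called in every alternative at the 1.5-fold limit and 0 reversed. Over all members called higher at 48 h, 26 of 33 (GW3965), 15 of 22 (T0901317) and 6 of 10 (rosiglitazone) stayed called. For those called lower at 48 h these were 13 of 13, 18 of 20 and 14 of 18. Counts are given as higher and then lower against DMSO. With a fold limit of 2 they were 4 and 0 (GW3965), 2 and 0 (T0901317) and 1 and 4 (rosiglitazone) at 24 h, and 9 and 5, 4 and 6, and 3 and 7 at 48 h. With no fold limit they were 15 and 3, 14 and 2, and 22 and 26 at 24 h, and 58 and 29, 54 and 29, and 36 and 37 at 48 h. With library totals as scaling, rosiglitazone gave 14 lower members at 24 h, and at 48 h 6 that were higher and 33 that were lower. Without the filter on low counts, GW3965 at 24 h gave 1 lower. When single libraries were left out, the counts at 24 h were 7 to 9 and 1 to 2, 5 to 8 and 0, and 5 to 6 and 8 to 10, and at 48 h they were 29 to 34 and 13 to 16, 17 to 23 and 18 to 20, and 7 to 12 and 16 to 21. Between GW3965 and T0901317 they were 1 to 2 at 24 h and 1 to 9 at 48 h in all, and the rosiglitazone response at 48 h against 24 h was called in 6 to 12 members. The cause of these differences was not tested.

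Replicate numbers were not taken as pairs, since the labels give them no shared origin and the correlation of deviations was not over 0.1 in every same-numbered pair (range -0.354 to 0.43). For rosiglitazone and T0901317 at 24 h, 3 of 4 such pairs were over 0.1 (0.04 to 0.198). With the replicate block, T0901317 at 24 h gave 6 higher members in place of 7, and SLC7A5 had a log2 change of 0.59 (edgeR adjusted p 0.0122). DMSO at 48 h against 24 h gave 15 lower in place of 22, and the other counts with the block differed by at most 1. The smallest library held 21044798 counts, and the effect of depth was not tested.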
